A study of Mus musculus with 3 samples.

Results

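The cells described here are chondrocytes of the mouse fracture callus that carried transcripts of *Chrdl2*, *Car12* and related genes together, 156 cells of the 16446 that passed the limits at day 10 and day 14 after fracture. A cell qualified when it had 500 to 5000 genes, at most 10% mitochondrial and 5% hemoglobin transcripts, and no transcript of *Ptprc*, the gene of CD45. It also had at least 10 transcripts of *Cnmd* (chondromodulin) and fewer than 50 of *Col10a1* (collagen X, the hallmark of hypertrophic cartilage) per 10000 transcripts. At least 4 of 6 required genes (*Chrdl2*, *H2-DMa*, *Fam89a*, *Adm2*, *Car12*, *Mgarp*) had to be seen, and fewer than 4 of 7 barred genes (*Car8*, *Snx22*, *Fzd9*, *Extl1*, *Ncmap*, *Cmtm5*, *Sorbs2*). Measured values therefore chose the cells. The levels of these 15 genes are a description, and so is every other comparison of these cells with cells chosen by the same genes.

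The study captured untreated C57BL/6 mouse cells from femoral fracture callus in droplets at day 7, day 10 and day 14, after sorting for live (7-AAD) cells without CD31, CD45 and Ter119 on their surface. Each day gave 1 library, how many animals it pooled was not given in the labels, and no library had a replicate, so no test was possible and the day cannot be told apart from the library. A unique molecular identifier (UMI) stands for 1 captured mRNA molecule, and levels are CPM, the UMIs of a gene summed over a group of cells and scaled to the same total in every group. The 95% intervals cover counting error only.

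Chondrocytes build the soft callus that bridges a fracture before bone replaces it. They live in a tissue without vessels and are known to make much of their energy by glycolysis under the control of the oxygen-sensing factor HIF-1, while mitochondria are used less. As they mature they pass from proliferating through prehypertrophic to hypertrophic cells, which make collagen X and later mineralize and degrade their matrix.

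Of the cells within the limits, 76 of 6593 met the rule at day 10 (1.15%, Clopper-Pearson 95% interval 0.909 to 1.44) and 80 of 9853 at day 14 (0.812%, 0.644 to 1.01). They were 2.50% and 4.03% of the *Cnmd* cells below the *Col10a1* limit, which numbered 3046 and 1987. At day 7 none of 7017 cells met the rule, which allows a share of up to 0.0526%, and 64 of them were *Cnmd* cells below the limit. The day 7 library had only 447 cells without a *Ptprc* transcript, against its label as CD45-negative, and enters no comparison below. The cells within the limits held 55187609 to 154573230 UMIs per library. Between 29 and 42 barcodes were shared by any 2 libraries among 8801 to 12984 deposited ones.

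The Chrdl2/Car12 cells were deeply captured, with a median of 21957 UMIs at day 10 and 23782 at day 14. The number of required genes seen was 4 in 40 cells, 5 in 22 and all 6 in 14 at day 10, and 4 in 48, 5 in 24 and 6 in 8 at day 14. Most cells sat at the other limit, since 51 of 76 and 40 of 80 had exactly 3 barred genes. Just outside it, 47 and 42 cells had 4 required and 4 barred genes, and 56 and 73 cells fell short by having 3 required genes. *Cnmd* ran from 10.2 to 56.0 per 10000 UMIs in the cells of day 10 and from 10.4 to 67.4 at day 14.

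4 other groups from the same libraries serve for comparison. Prehypertrophic-rule cells (1812 at day 10, 836 at day 14) had at least 4 barred and fewer than 4 required genes. Cells of both lists (181 and 137) had at least 4 of each, and cells of neither list (977 and 934) fewer than 4 of each. Col10a1 cells (169 and 217) had *Cnmd* as above and *Col10a1* at or over the limit. The median depth was 20179.5 and 23016 UMIs in prehypertrophic-rule cells, 25770 and 26643 in cells of both lists, and 15057 and 16684 in cells of neither list. A gene is more easily seen in a deep cell, so the depth of these groups moves with the rule.

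By their matrix genes the cells were chondrocytes. *Col2a1*, the main cartilage collagen, was at 58304 CPM in the cells of day 10 and at 46013 CPM in those of day 14. *Snorc*, a membrane proteoglycan of chondrocytes, was at 7437 and 6775 CPM, and the chondrogenic factor *Sox9* at 1142 and 603 CPM. Every one of 76 cells and 79 of 80 cells had a *Sox9* UMI. *Col10a1*, held low by the rule, was at 660.3 and 379 CPM beside 18864 and 17494 CPM in Col10a1 cells. Markers of blood, vessel and mural cells were low. The summed level of 10 hematopoietic genes was 3.60 CPM at day 10 and 26.5 CPM at day 14, with 5 and 4 of them at 0, and 5 endothelial genes summed to 1.80 and 4.24 CPM. The 6 genes of pericytes and smooth muscle summed to 6.60 and 30.7 CPM, and 10 osteoblast genes, which chondrocytes express in part, to 19299.8 and 16955 CPM against 23918 and 22586 CPM in prehypertrophic-rule cells.

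The 5 genes given for these cells were all detected, and 4 belong to the rule. *Chrdl2* encodes chordin-like 2, a secreted BMP-binding protein. It was at 58.2 CPM (95% interval 47.2 to 71.0) at day 10 and 177 CPM (95% interval 158 to 197) at day 14, seen in 45 of 76 and 65 of 80 cells, and at 8.72 and 11.5 CPM in prehypertrophic-rule cells. *Car12*, a membrane carbonic anhydrase, was at 146 and 103 CPM, no higher than the 147 and 140.0 CPM of cells of both lists. *Ppa1*, the cytosolic pyrophosphatase, was the 1 given gene outside the rule, and it did not mark these cells against every group. It was at 505 and 555 CPM, at least 2-fold above cells of neither list (196 and 229 CPM) and above prehypertrophic-rule cells by less than that (319 and 499.9 CPM). It was below cells of both lists (904 and 847 CPM) and not above Col10a1 cells (718 and 567 CPM). A single cell held 26.1% of its UMIs at day 14, and 14 of 80 cells had none. The word mature in the name was not tested as such, and the lists that bear on it, of hypertrophic and of early and resting chondrocytes, are described further on.

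The genes of glycolysis and the hypoxia response stood higher in the Chrdl2/Car12 cells than in prehypertrophic-rule cells. Of 27 genes in this list, 18 reached 50 CPM in the higher group on both days, and 14 were at least 2-fold higher on both days and none lower. For comparison, 40 of all 2238 genes tested (1.79%) were at least 2-fold higher and 23 (1.03%) lower. With each gene's log2 ratio averaged over both days, the median over the list was 1.42, beside -0.0025 over all genes tested. The list is not independent of the rule, because *Car12*, *Mgarp* and *Adm2* are themselves known to respond to low oxygen.

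The genes that passed lie from the entry to the exit of the pathway, but not at every step. At its entry, the glucose transporter *Slc2a1* was at 128 CPM (day 10) and 66.7 CPM (day 14) in the Chrdl2/Car12 cells, and at 30.8 and 23.7 CPM in prehypertrophic-rule cells. The enzyme *Gapdh* was at 3875 CPM (day 10) and 3386 CPM (day 14) in the Chrdl2/Car12 cells, and at 1047 and 1238 CPM in prehypertrophic-rule cells, and *Pgk1*, which makes ATP in the following step, at 1171 and 1128 against 351 and 469.8 CPM. *Ldha*, which turns pyruvate to lactate, was at 1614 and 1527 CPM against 550.3 and 707 CPM. Processed pseudogenes of *Gapdh*, *Pgk1*, *Pgam1* and *Ldha* are known, so their counts can be split among copies. At the exit, the lactate exporter *Slc16a3* had log2 ratios of 2.16 (95% interval 2.00 to 2.32) at day 10 and 1.53 (95% interval 1.33 to 1.72) at day 14. The other genes that passed were *Pfkp*, *Aldoa*, *Pgam1*, *Pkm*, *Bnip3*, *Ero1l*, *P4ha2*, *Vegfa* and *Higd1a*. The 4 tested genes that did not pass were *Gpi1*, *Pfkl*, *Eno1* and *P4ha1*, with log2 ratios between 0.62 and 1.17. The hexokinases, which act first on glucose, fell below 50 CPM at day 14 and were not tested, and *Hk2* was at 104 and 32.8 CPM beside 95.6 and 34.6 CPM.

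*Bnip3*, a mitochondrial receptor for mitophagy and a classical HIF-1 target, was at 838 CPM (95% interval 795 to 884) in the cells of day 10 and 528 CPM (95% interval 496 to 562) in those of day 14. It was at 86.8 and 128 CPM in prehypertrophic-rule cells, which gives log2 ratios of 3.27 (95% interval 3.18 to 3.36) and 2.04 (95% interval 1.93 to 2.15). With each cell thinned to 5000 UMIs, 72 of 76 cells (94.7%) and 67 of 79 (84.8%) had a *Bnip3* UMI, against 25.7% and 36.6% of prehypertrophic-rule cells. Without thinning the shares were 98.7% and 98.8% against 54.2% and 71.4%. *Bnip3* overlaps an antisense gene and a pseudogene, and the strand setting of the counting was not given in the sources used here.

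Outside the list, further genes known from the hypoxia response were among the 12 with the largest ratios. *Egln1*, the oxygen-sensing prolyl hydroxylase that marks HIF-1 for decay, was at 407 CPM (day 10) and 302 CPM (day 14) in the Chrdl2/Car12 cells, and at 70.5 and 79.8 CPM in prehypertrophic-rule cells. *Ndufa4l2*, which lowers complex I activity in hypoxic cells, was at 1294 and 1199 CPM against 249 and 382 CPM. Both *Bnip3l* and *Fam162a* had log2 ratios from 1.55 to 2.02. *Hif1a* itself, whose protein is controlled mainly by decay, differed little, with 409 CPM (day 10) and 361 CPM (day 14) in the Chrdl2/Car12 cells, and at 322 and 313 CPM in prehypertrophic-rule cells. *Car9*, the carbonic anhydrase most tied to hypoxia, was low throughout but highest in the Chrdl2/Car12 cells, at 43.2 and 26.5 CPM against 3.17 and 2.76 CPM.

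The promoters of 4 of the genes that passed are printed because they hold ACGTG, the core of the hypoxia response element (RefSeq, GRCm38.p6, 250 bases before to 50 after the start, 5′ to 3′ on the gene's strand; capitals mark ACGTG or its reverse complement CACGT, which overlap as CACGTG). They are *Bnip3* (chr7:138909457-138909756, minus strand), *Slc16a3* (chr11:120948817-120949116, plus strand), *Pgk1* (chrX:106186850-106187149, plus strand) and *Ldha* (chr7:46845554-46845853, plus strand).
Bnip3 promoter: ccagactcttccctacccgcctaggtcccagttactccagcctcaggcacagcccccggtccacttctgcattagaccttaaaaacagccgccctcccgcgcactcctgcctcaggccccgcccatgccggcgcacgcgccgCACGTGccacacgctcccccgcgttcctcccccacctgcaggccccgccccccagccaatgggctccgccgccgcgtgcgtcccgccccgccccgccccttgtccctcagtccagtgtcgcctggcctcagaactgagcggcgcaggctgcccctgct
Slc16a3 promoter: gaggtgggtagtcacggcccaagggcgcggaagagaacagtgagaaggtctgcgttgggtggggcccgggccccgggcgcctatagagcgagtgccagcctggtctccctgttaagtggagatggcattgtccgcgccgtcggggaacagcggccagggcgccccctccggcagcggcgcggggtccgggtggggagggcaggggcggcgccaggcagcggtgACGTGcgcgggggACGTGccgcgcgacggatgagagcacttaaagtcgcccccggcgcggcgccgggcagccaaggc
Pgk1 promoter: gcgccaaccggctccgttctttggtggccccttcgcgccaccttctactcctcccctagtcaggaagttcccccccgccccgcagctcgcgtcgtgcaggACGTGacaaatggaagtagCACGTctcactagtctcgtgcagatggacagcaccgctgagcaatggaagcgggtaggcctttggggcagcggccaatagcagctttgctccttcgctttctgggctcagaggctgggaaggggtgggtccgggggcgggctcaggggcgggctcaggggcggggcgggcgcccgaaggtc
Ldha promoter: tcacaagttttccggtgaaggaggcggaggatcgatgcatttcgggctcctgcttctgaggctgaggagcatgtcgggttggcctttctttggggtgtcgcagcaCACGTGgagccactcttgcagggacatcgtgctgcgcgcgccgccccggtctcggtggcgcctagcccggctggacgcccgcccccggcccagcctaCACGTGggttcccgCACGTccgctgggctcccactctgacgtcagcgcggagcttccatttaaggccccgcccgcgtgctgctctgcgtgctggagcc
Of the 14 list genes that passed, 13 had a promoter in the table and 12 of these (92.3%) held the core on either strand, as did 18 of 25 (72%) of the whole list. Over all 27025 genes with a promoter, 5886 (21.8%) held it. The passing genes had GC-rich promoters, with a median GC content of 65.7% against 53.3% over all, and of the 8543 promoters with at least 60% GC, 30.5% held the core. Among the required genes *Fam89a* and *Mgarp* held it, of 5 with a promoter, and none of 5 class II genes did. *Ldha* has a further start in the table without the core, which is not shown, and *Chrdl2* had no entry. A match of 5 letters describes the sequence and is no measured binding site. Because the list was chosen for glycolysis and the hypoxia response, its share describes that choice, and control by HIF-1 was not tested.

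Per cell, the 27 genes summed to a median of 15524 CPM at day 10 (lowest 6538, highest 31543) and 14262 CPM at day 14 (lowest 2216, highest 33863). The prehypertrophic-rule cells had medians of 3590.3 and 4852 CPM, and 1 in 10 of them lay above 9915 and 11387 CPM, so the groups overlapped in their tails. Cells of both lists came close, with medians of 13792 and 11831 CPM. Cells of neither list were at 3331 and 3836 CPM.

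**Figure D1:**
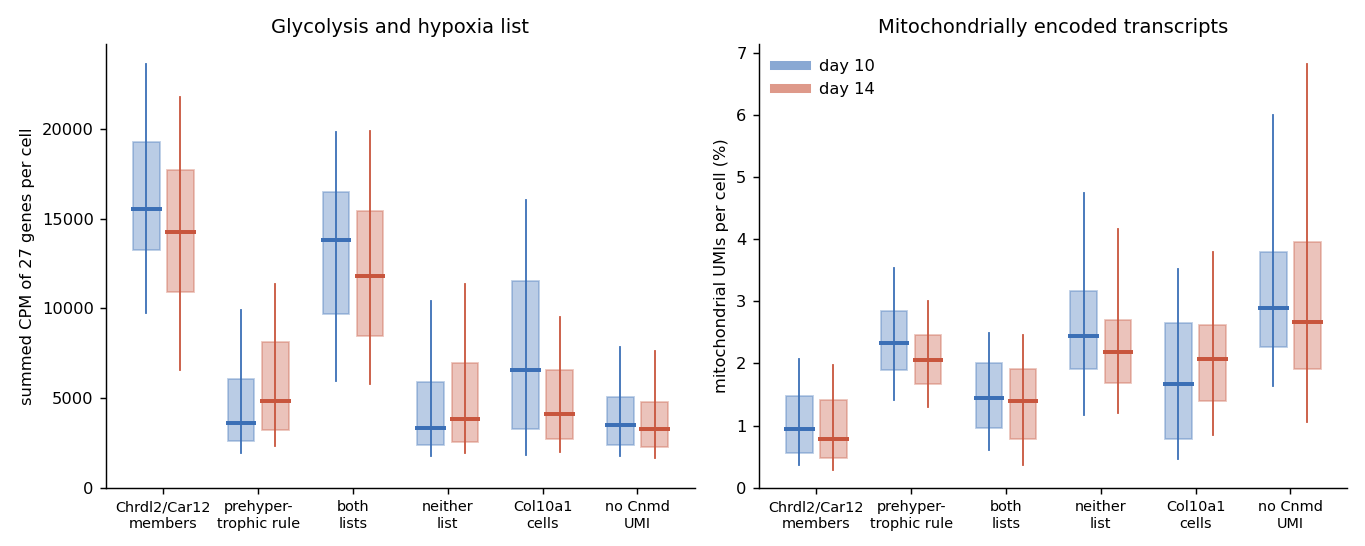
Per-cell summed CPM of the 27 glycolysis and hypoxia genes (left) and per-cell mitochondrial UMIs in percent (right) for 6 groups at day 10 (blue) and day 14 (red); the line is the median, the box the quartiles and the thin line the 10th to 90th percentile of cells of 1 library. The Chrdl2/Car12 cells have the highest medians on the left (15524 and 14262 CPM) and the lowest on the right (0.945% and 0.783%).

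Mitochondrially encoded transcripts stood in the opposite order. Their share was a median of 0.945% (quartiles 0.566 to 1.48) in the Chrdl2/Car12 cells of day 10 and 0.783% (0.473 to 1.41) at day 14. It was 2.33% and 2.06% in prehypertrophic-rule cells, 2.45% and 2.18% in cells of neither list, and 1.44% and 1.40% in cells of both lists. A share under 1% was found in 40 of 76 and 47 of 80 Chrdl2/Car12 cells (52.6% and 58.8%), against 2.98% and 5.50% of prehypertrophic-rule cells. The gap was as wide among cells with 10000 to 30000 UMIs, where the medians were 0.888% and 0.760% against 2.31% and 2.06%. The rule capped this share at 10% in all groups and used no mitochondrial gene otherwise.

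Of 13 mitochondrial mRNAs 11 were tested, and all 11 were lower than in prehypertrophic-rule cells on both days, with log2 ratios from -1.25 to -0.41 at day 10 and from -1.23 to -0.70 at day 14, and 6 of them at least 2-fold on each day. The other two were below 50 CPM. *mt-Atp8* was at 13.8 and 13.2 CPM against 25.2 and 26.9 CPM, while *mt-Nd6* was not lower beyond counting, at 26.4 and 21.2 CPM against 20.6 and 21.7 CPM. *mt-Co1*, a subunit of complex IV, was at 2396 CPM (day 10) and 1693 CPM (day 14), against 4820 and 3963 CPM. The nuclear genes of oxidative phosphorylation did not follow at this size. Of 16 in the list 13 were tested, and their median log2 ratio to prehypertrophic-rule cells was -0.11. The median over the 11 mitochondrial mRNAs was -1.01 at day 10 and -1.01 at day 14. None of the 13 was 2-fold different on both days, which is near the share over all genes tested (1.79% higher and 1.03% lower). *Ndufa4*, a subunit linked to complex IV, was at 159.5 CPM (day 10) and 173 CPM (day 14) in the Chrdl2/Car12 cells, and at 292 and 304 CPM in prehypertrophic-rule cells.

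A few genes of antigen presentation by MHC class II stood higher as well. In this list of 15 genes, 5 outside the rule were tested and 2 were at least 2-fold higher than in prehypertrophic-rule cells, *H2-DMb1* and *H2-Ab1*, beside 1.79% of all genes, and none was lower. *B2m*, the light chain of class I molecules, was lower against cells of neither list, at 134 and 194 against 362 and 395 CPM. *H2-DMa*, which encodes 1 chain of the peptide-loading chaperone H2-DM and belongs to the rule, was at 204 and 241 CPM. Its partner chain *H2-DMb1*, which the rule did not use, was at 151 CPM (95% interval 132 to 170.4) at day 10 and 246 CPM (95% interval 224 to 269) at day 14, against 50.8 and 93.6 CPM in prehypertrophic-rule cells. Cells of both lists had nearly as much, 142 CPM (95% interval 132 to 153) and 222 CPM (95% interval 207 to 238), and thinned to 5000 UMIs *H2-DMb1* was seen in 34.2% and 58.2% of the Chrdl2/Car12 cells and in 44.8% and 47.4% of those. *H2-Ab1*, the beta chain of the I-A class II molecule, was at 188 CPM (95% interval 167 to 209.7) and 294 CPM (95% interval 270.5 to 320.0), against 6.85 and 16.6 CPM. With log2 ratios of 4.78 (95% interval 4.53 to 5.02) and 4.15 (95% interval 3.95 to 4.36) it stood second, outside the rule genes, by the smaller of both days. *H2-DMb2*, a near copy of *H2-DMb1* whose reads may be split between them, was at 28.8 and 38.1 CPM.

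These genes lie in a row on mouse chromosome 17 (GRCm38, GENCODE M21). *H2-DMa* spans chr17:34119541-34139101, *H2-DMb2* chr17:34143307-34151555, *H2-DMb1* chr17:34153072-34160230 and *H2-Ab1* chr17:34257689-34269419, all on the plus strand. *H2-Aa*, the alpha chain that pairs with *H2-Ab1*, follows at chr17:34282744-34287823 on the minus strand. *H2-DMa* overlaps *Brd2* and antisense genes in this annotation, while *H2-Ab1*, *H2-DMb1* and *H2-DMb2* overlap no other gene.

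The rest of the class II set was not seen with them. *H2-Aa* gave 2 UMIs in the 76 cells of day 10 and 0 in the 80 cells of day 14, beside 313 and 556 UMIs of *H2-Ab1* in 48 and 60 cells. *Cd74*, the invariant chain that guides class II molecules, gave 0 and 1 UMI, and *Ciita*, the transactivator that drives the whole set in immune cells, gave 0 and 0. Of the cells with UMIs of *H2-DMa*, *H2-DMb1* and *H2-Ab1* together, 32 at day 10 and 50 at day 14, 0 and 1 had a *Cd74* UMI. The 173 *Ptprc* cells of day 14, which are immune cells by that gene, had another balance, with 248 UMIs of *H2-Ab1*, 187 of *H2-Aa*, 146 of *H2-Eb1* and 486 of *Cd74*. Their *Cd74* count was thus above that of *H2-Ab1*, the reverse of the Chrdl2/Car12 cells. *Ciita* gave only 3 UMIs (1.42 CPM) in the *Ptprc* cells of day 14. Its 0 UMIs in the Chrdl2/Car12 cells therefore cannot show that it was absent.

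**Figure D2:**
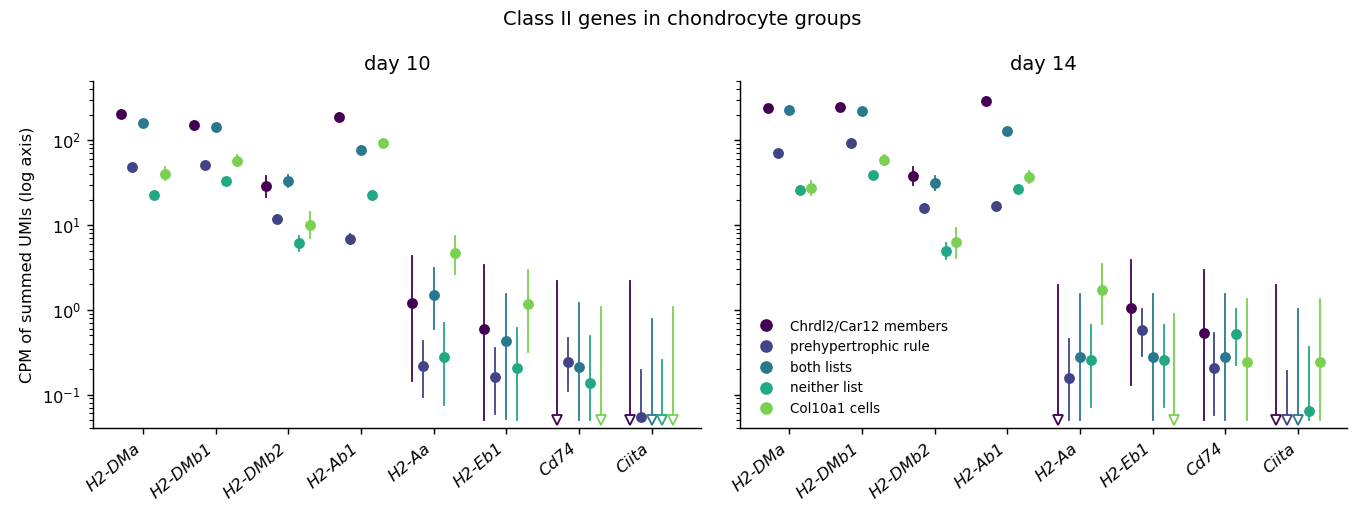
CPM of 8 class II genes (log axis) in 5 groups at day 10 (left) and day 14 (right), with exact Poisson 95% intervals; open triangles at the lower edge stand for 0 UMIs. The Chrdl2/Car12 members are highest for *H2-DMa*, *H2-DMb1* and *H2-Ab1* on both days, with intervals that overlap those of cells of both lists for *H2-DMb1* on both days and *H2-DMa* at day 14, while *H2-Aa*, *H2-Eb1*, *Cd74* and *Ciita* stay near 0 in all 5 groups.

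Thinned to 5000 UMIs, 31.6% of cells at day 10 and 54.4% at day 14 had an *H2-Ab1* UMI, against 2.27% and 4.78% of prehypertrophic-rule cells, and unthinned the shares were 63.2% and 75% against 6.79% and 14.95%. Of MHC class I, *H2-K1* was at 151 CPM (day 10) and 124 CPM (day 14) in the Chrdl2/Car12 cells, and at 38.2 and 63.3 CPM in prehypertrophic-rule cells, a ratio of 1.98 and 0.97 on the log2 scale. Its light chain *B2m* was not higher, at 134 and 194 CPM beside 219 and 243 CPM, and *H2-D1* differed little. *H2-K1* and *H2-D1* share much of their sequence, so reads may be split between them.

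Of the remaining genes higher than in prehypertrophic-rule cells, *2610528A11Rik*, which encodes a small secreted peptide, led the ranking. It was at 58.8 CPM (day 10) and 101 CPM (day 14) in the Chrdl2/Car12 cells, and at 2.30 and 1.87 CPM in prehypertrophic-rule cells, though only 21 of 76 and 24 of 80 cells had a UMI. *Isg20*, an interferon-induced exonuclease, had log2 ratios of 3.33 (95% interval 3.06 to 3.59) and 2.24 (95% interval 1.92 to 2.56). *Mt1*, a metallothionein that binds zinc and copper, was at 1451 CPM (day 10) and 1409 CPM (day 14) in the Chrdl2/Car12 cells, and at 438 and 426 CPM in prehypertrophic-rule cells. The VLDL receptor *Vldlr* was the 1 gene of 6 tested in the amino acid response list to pass, with 2.60 and 1.34 on the log2 scale. Of all genes tested 1.79% were higher.

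Lower in the Chrdl2/Car12 cells stood secreted matrix proteins and an iron exporter. Matrix Gla protein *Mgp*, an inhibitor of mineralization, was at 4960.3 CPM (day 10) and 8022 CPM (day 14) in the Chrdl2/Car12 cells, and at 26789.5 and 24878 CPM in prehypertrophic-rule cells. 1 cell held 28.7% of its UMIs at day 14, and without it the level was 5811 CPM. *Slc40a1*, ferroportin, the exporter of iron, was at 16.8 and 18.5 CPM against 91.3 and 84.2 CPM, and was seen in 10 of 76 and 21 of 80 cells. *Cthrc1*, a secreted protein of repair tissue, had log2 ratios of -2.50 (95% interval -2.78 to -2.23) and -1.59 (95% interval -1.78 to -1.41).

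Next came *Adgrg6*, an adhesion receptor of cartilage, with -1.56 and -2.40 on the log2 scale. The imprinted gene *Mest* was lower too, with 195 and 138 CPM against 547 and 399 CPM. *Penk*, *Nrp2*, *Cpxm1*, *Fbln7*, *Igsf10* and *Mdk* were also among the 12 lowest, with log2 ratios between -2.71 and -1.26. Of the lists of cartilage genes few moved. In the chondrocyte list 1 of 15 tested genes was lower, *Matn1* (matrilin 1), and none higher, and in the transcription factor list none of 16 passed, nor any of 15 genes of proteoglycan synthesis. In the hypertrophic list 1 of 11 was higher (*Vegfa*) and none lower, with a median log2 ratio of 0.31. In the early and resting list 1 of 5 was lower (*Penk*) and none higher, with a median of -0.93. The median over all genes tested was -0.0025. Over all genes tested 1.79% were higher and 1.03% lower.

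Few genes of the signaling lists reached the minimum level. None of 3 tested BMP antagonists, 3 hedgehog and PTHrP genes, 2 Wnt modulators and 2 FGF genes passed against prehypertrophic-rule cells, and none of 16 genes of the unfolded protein response. With 1.79% of all genes tested higher and 1.03% lower, so few genes without a call are near the share over all genes. *Nog* (noggin), a BMP antagonist like *Chrdl2*, stayed below 50 CPM on both days and was not tested, at 45.0 CPM (day 10) and 28.1 CPM (day 14) in the Chrdl2/Car12 cells, and at 5.01 and 8.54 CPM in prehypertrophic-rule cells. Col10a1 cells had more of it, 79.9 and 54.4 CPM. The PTHrP receptor *Pth1r*, which delays hypertrophy, was at 1501 and 1045 CPM beside 813 and 994 CPM.

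**Figure D3:**
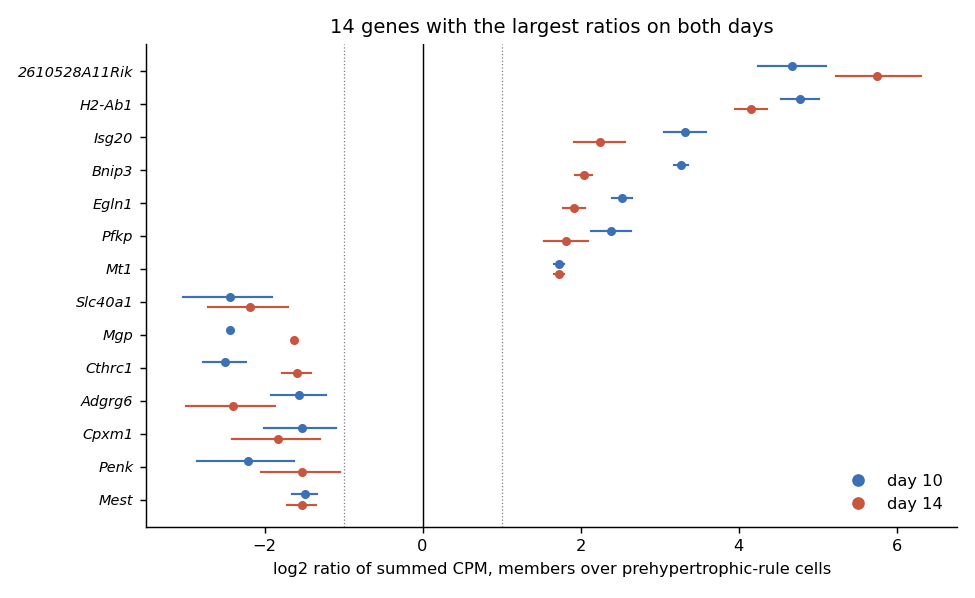
Log2 ratio of summed CPM, Chrdl2/Car12 members over prehypertrophic-rule cells, for the 7 genes highest and the 7 lowest on both days, at day 10 (blue) and day 14 (red) with exact binomial 95% intervals; dotted lines mark 2-fold. *2610528A11Rik* and *H2-Ab1* lie farthest to the right, at 4.15 or more on both days, and the lower genes lie between -2.50 and -1.49.

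Against cells of neither list the differences were wider, with 74 of 2397 genes (3.09%) at least 2-fold higher on both days and 116 (4.84%) lower. The glycolysis and hypoxia list gave 15 of 18 higher and none lower, with a median log2 ratio of 1.52. *H2-Ab1* at 22.3 and 26.4 CPM and *H2-DMb1* at 33.0 and 39.4 CPM were again low in the comparison cells. The prolyl hydroxylase *P3h2*, which modifies collagen, was at 287 and 227 CPM against 61.2 and 73.6 CPM. The ion-transport regulator *Fxyd3* had 2.56 (95% interval 2.31 to 2.81) and 1.69 (95% interval 1.34 to 2.03) on the log2 scale, and 1 cell held 39.2% of its UMIs at day 14. Without that cell *Fxyd3* was at 33.5 CPM at day 14, beside 16.7 CPM, below the minimum of 50 CPM and no longer 2-fold. *Slc2a1* and *Wscd2* were also among the 12 highest.

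Genes of progenitors and early chondrocytes stood lower than in cells of neither list. In the progenitor and fibroblast list 6 of 9 tested genes were lower and none higher (*Aspn*, *Ogn*, *Ptn*, *Prrx1*, *Thbs2* and *Lum*), with a median log2 ratio of -1.50 beside -0.02 over all genes. The proteoglycan osteoglycin, *Ogn*, was at 87.6 CPM (day 10) and 158 CPM (day 14) in the Chrdl2/Car12 cells, and at 1076 and 778 CPM in cells of neither list. Of the early and resting chondrocyte list 4 of 6 were lower (*Nrk*, *Matn4*, *Penk* and *Clu*), and *Penk*, the enkephalin precursor, was at 14.4 and 19.1 against 153 and 137 CPM. The hypertrophic list was mixed, with a median log2 ratio of 0.46. Of its 12 tested genes 1 was at least 2-fold higher (*Panx3*) and 3 were lower (*Mmp13*, *Ibsp* and *Spp1*). Proteases followed, with *Mmp2*, *Mmp13*, *Mmp14* and the inhibitor *Timp2* lower among 7 tested.

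The activin antagonist follistatin (*Fst*) was nearly absent from the Chrdl2/Car12 cells, with 6 UMIs at day 10 and 4 at day 14, and 65.3 and 70.1 CPM in cells of neither list. Collagen XIV (*Col14a1*), a collagen of fibrous layers, had 8 and 9 UMIs against 186 and 84.5 CPM. The peptidase *Mme* gave 0 UMIs in 76 cells at day 10, which at the floor of 3 counts is a log2 ratio of -4.84 or lower, and -4.04 (95% interval -5.26 to -3.06) at day 14. The IGF-binding protein *Igfbp5* and *Abi3bp*, both of stromal cells, were lower by log2 ratios of -3.96 and -5.07 at day 10 and -4.06 and -2.56 at day 14. *Slc40a1*, *Gas6*, *Cthrc1*, *Crispld2* and *Scara3* were also among the 12 lowest.

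The cartilage genes themselves were less apart. The link protein gene *Hapln1*, which ties aggrecan to hyaluronan, was the 1 of 14 tested chondrocyte genes to pass, at 6744 CPM (day 10) and 4337 CPM (day 14) in the Chrdl2/Car12 cells, and at 1987 and 1599 CPM in cells of neither list. In the list for proteoglycan synthesis 3 of 14 were higher, namely *Chst11*, *Papss2* and *Ugp2*, and none lower. *Papss2*, which makes the sulfate donor for chondroitin sulfate, was at 560.1 and 477 against 214 and 191 CPM. Among FGF receptors *Fgfr3*, the brake on chondrocyte growth, was higher (1.17 and 1.35 on the log2 scale) and *Fgfr2* lower (-2.01 and -1.16).

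Set against Col10a1 cells, 50 of 2236 genes (2.24%) were at least 2-fold higher in the Chrdl2/Car12 cells on both days and 60 (2.68%) lower. The metallothioneins led the higher genes. *Mt1* was at 1451 and 1409 CPM against 223 and 109 CPM, and *Mt2* at 149 and 195 against 16.5 and 13.4 CPM. The matrix genes *Fbln2*, *Prelp* and *C1qtnf3*, the imprinted RNA *H19* and *Sbsn* were also higher, with *Prelp*, a leucine-rich proteoglycan, at 432 CPM (day 10) and 512 CPM (day 14) in the Chrdl2/Car12 cells, and at 154 and 120.3 CPM in Col10a1 cells. *Ptch1*, the hedgehog receptor and target gene, had 1.25 and 1.54 on the log2 scale. 7 of 18 glycolysis and hypoxia genes passed and none was lower.

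Genes of hypertrophy and mineralization stood lower. Of 13 tested genes of the hypertrophic list, without *Col10a1*, 6 were lower and none higher (*Ihh*, *Runx2*, *Mmp13*, *Ibsp*, *Spp1* and *Phex*), with a median log2 ratio of -0.93 beside 0.07 over all genes. The collagenase *Mmp13* was at 21.6 CPM (day 10) and 106 CPM (day 14) in the Chrdl2/Car12 cells, and at 522 and 1631 CPM in Col10a1 cells. Bone sialoprotein (*Ibsp*) had log2 ratios of -2.73 (95% interval -2.77 to -2.70) and -3.42 (95% interval -3.46 to -3.39). *Ihh*, the hedgehog ligand of prehypertrophic and hypertrophic cells, was at 155 and 69.9 CPM against 540.4 and 494 CPM. It stood above prehypertrophic-rule cells at day 10 (31.5 CPM) and not at day 14 (74.2 CPM). *Bmp2* and *Fgfr1* were lower too. *Col10a1* set both groups, so these differences describe that limit as well as the lists.

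Cells of both lists resembled the Chrdl2/Car12 cells most. Only 2 of 2148 genes (0.0931%) were at least 2-fold higher on both days and 0 (0%) lower. 1 of the 2 was *H2-Ab1*, with log2 ratios of 1.29 and 1.21. None of the 18 tested genes of the glycolysis and hypoxia list passed, and their median log2 ratio was 0.20. The barred genes, fewer in the Chrdl2/Car12 cells by rule, were the clearest contrast, with *Car8* at 49.8 and 54.0 against 178 and 218 CPM.

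Along the number of required genes seen, levels already changed below the rule's limit of 4. Among *Cnmd* cells below the *Col10a1* limit with fewer than 4 barred genes and 10000 to 30000 UMIs, cells with 0, 1, 2, 3, 4, 5 and 6 required genes numbered 451, 179, 81, 46, 38, 17 and 13 at day 10 and 453, 161, 93, 62, 40, 19 and 6 at day 14. *Bnip3* over this series was at 32.8, 111, 299, 521, 758, 988 and 1096 CPM at day 10, and at 57.3, 143, 222, 383, 495, 634 and 830.1 CPM at day 14. It was thus higher with each added gene on both days. *H2-Ab1* was at 2.03, 20.5, 82.3, 105, 143, 176 and 365 CPM at day 10, and 5.95, 22.4, 57.6, 126, 291, 384 and 457 CPM at day 14. *Cthrc1* stood in the reverse order, at 1104, 731, 300.4, 208, 79.9, 79.0 and 20.3 CPM at day 10 and 1038, 815, 419, 188, 124, 59.7 and 20.8 CPM at day 14. Cells with 3 required genes, just outside the rule, lay between their neighbors for all 3 genes.

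The mitochondrial share fell along the same series, here over cells of all depths, though not with each added gene at day 10. Its median was 2.57%, 2.50%, 2.07%, 1.70%, 0.970%, 1.02% and 0.768% for 0 to 6 required genes at day 10. At day 14 it was 2.26%, 2.17%, 1.90%, 1.49%, 1.04%, 0.577% and 0.478%. The median depth also grew along the series, and required genes are easier to see in deep cells, which is why the genes above were taken within a window of depth.

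**Figure D4:**
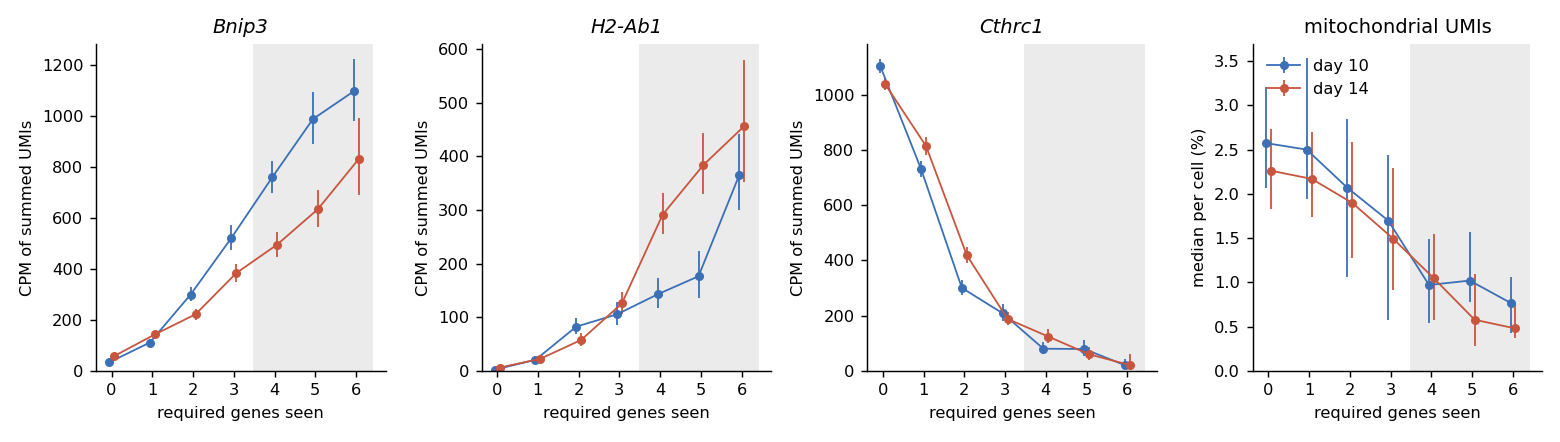
CPM of *Bnip3*, *H2-Ab1* and *Cthrc1* (exact Poisson 95% intervals, cells of 10000 to 30000 UMIs) and median mitochondrial UMIs in percent (quartiles, all depths) by the number of required genes seen, from 0 to 6, in cells with fewer than 4 barred genes at day 10 (blue) and day 14 (red); the gray area holds the cells that met the rule. *Bnip3* and *H2-Ab1* climb and *Cthrc1* and the mitochondrial share drop before the gray area begins.

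Within the Chrdl2/Car12 cells the median variance over 1998 genes was 1.33 times the counting variance, and 479 genes were above 2 times. At low counts a ratio near 1 does not show that cells were alike. *Mgarp*, at 1.62 times counting at day 10, had a spread beyond counting of 52.3% of its mean. Bone sialoprotein *Ibsp* varied most by the smaller value of both days, with variances of 550.3 and 448.7 times counting, though at day 14 *Mgp* (1062) and *Spp1* (552) exceeded it. At day 10 it had a median of 170.0 CPM and a highest cell of 56157 CPM, and at day 14 a median of 218 CPM and a highest of 37966 CPM. The highest cells of this mineralization gene thus stood far above the middle of the group. *Mgp*, *Cst3*, *Fn1*, *Sparc*, *Col1a1*, *Col1a2*, *Spp1*, *C1qtnf3*, *Malat1* and the heat shock gene *Hspb1* came after it by the same order with *Col2a1*.

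*Col2a1*, whose high count makes its variance easy to see, ranged from 8951 to 101744 CPM at day 10, and its spread beyond counting was 34.6% of the mean. *Acan* was as even, with 32.0% and 49.7% beyond counting on the 2 days. *Ihh* was patchy by contrast, unseen in 36 of 76 and 54 of 80 cells. Genes of proliferation were low. The 12 of that list summed to 61.8 and 115 CPM, beside 153 and 146 CPM in prehypertrophic-rule cells, and 2 and 0 of them were at 0. *Mki67*, a gene of cycling cells, had a UMI in 2 of 76 and 6 of 80 cells. Thinned to 5000 UMIs it was seen in 0 of 76 and 0 of 79, which at the floor of 3 counts allows shares of cells with a UMI of up to 3.95% and 3.80%, so a difference from the 2.55% and 1.79% of prehypertrophic-rule cells was not detectable at this depth.

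Between the 2 days, 53 of 2447 genes (2.17%) were at least 2-fold higher in the Chrdl2/Car12 cells of day 14 and 89 (3.64%) at least 2-fold lower. In the glycolysis and hypoxia list none of 21 tested genes was higher and 4 were lower (*Hk1*, *Hk2*, *Ero1l* and *Vegfa*), with a median log2 difference of -0.22 beside -0.05 over all genes. *Vegfa*, the angiogenic factor that attracts vessels to cartilage, went from 312 to 101 CPM, and *Hk2*, which traps glucose in the cell, from 104 to 32.8 CPM. *Hk2* was also lower at day 14 in prehypertrophic-rule cells, at 95.6 and 34.6 CPM, and so was *Vegfa*, at 103 and 49.3 CPM.

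Several genes higher at day 14 rested on few cells. *Lcn2*, an iron-binding protein of innate defense, went from 1 UMI to 487, but in 18 of 80 cells, and 1 cell held 42.9% of them. *Lcn2* was also higher at day 14 in prehypertrophic-rule cells and cells of neither list, with log2 differences of 4.75 and 4.31. Osteocalcin, *Bglap*, went from 3 to 512 UMIs with 89.8% in 1 cell, and without each day's highest cell it was at 1.21 and 28.2 CPM. *Bglap2* was the same case with 90.7% in 1 cell. *Apoe*, *Gm45833* and *1520401A03Rik*, also among the 12 highest, were seen in 22, 13 and 14 of 80 cells. *Hp* (haptoglobin) went from 8.996 to 335 CPM, the chemokine *Cxcl1* from 4.80 to 192 CPM and complement *C3* from 2.40 to 87.4 CPM. In prehypertrophic-rule cells *Hp* and *C3* were also higher at day 14, with log2 differences of 1.34 and 1.75. The day difference of *Cxcl1* was the opposite in prehypertrophic-rule cells, with a log2 difference of -2.14, and in cells of neither list, with -1.20. *Cxcl1* and *Hp* were the 2 of 2238 genes (0.0894%) that were at least 2-fold apart from prehypertrophic-rule cells on both days in opposite directions, and *Cxcl1* the 1 of 2397 (0.0417%) against cells of neither list. For *Hp*, 1 cell held 32.4% of the UMIs at day 14. Without that cell *Hp* was at 229 CPM, less than 2-fold above prehypertrophic-rule cells.

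6 of these genes (*Lcn2*, *Hp*, *C3*, *Cxcl1*, *Apoe* and *Chil1*), a set chosen after their values were seen, were counted together. At least 3 of them were seen in 0 of 76 cells at day 10 (95% interval 0 to 4.74%) and in 23 of 80 at day 14 (28.8%, 19.2 to 40.0%), and 10 cells held 77.6% of their 1951 UMIs. Prehypertrophic-rule cells had such cells at 6.18% and 11.8%. Neutrophil genes were also higher at day 14, with *S100a8* at 0.600 and 7.94 CPM and *S100a9* at 0.600 and 13.2 CPM. Their part in the *Lcn2* counts was not tested. Such a rise was not particular to these cells. The 10 hematopoietic genes summed to 6.48 and 63.8 CPM in prehypertrophic-rule cells, 4.49 and 29.6 CPM in cells of both lists, and 8.10 and 330 CPM in Col10a1 cells. In cells of neither list they were lower at day 14, at 185 and 44.5 CPM.

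Other genes were spread over more cells. *Sfrp5*, a secreted Wnt antagonist, went from 10.8 to 171 CPM, a log2 difference of 3.98 (95% interval 3.30 to 4.75), in 37 of 80 cells at day 14. *Igf1*, the growth factor, went from 9.60 to 117 CPM in 34 of 80 cells, while in prehypertrophic-rule cells its log2 difference was 0.0749. Of the small leucine-rich proteoglycans 3 of 10 tested were higher (*Dcn*, *Omd* and *Aspn*), as were 3 of 8 progenitor and fibroblast genes (*Aspn*, *Thbs2* and *Dcn*), and none of either was lower. Over all genes tested 2.17% were higher at day 14 and 3.64% lower. Asporin, *Aspn*, went from 88.2 to 262 CPM. *Chrdl2* itself went from 58.2 to 177 CPM, which as a rule gene is a description.

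The genes lower at day 14 did not hang on single cells, since in 0 of the 12 lowest did 1 cell hold most of the UMIs on either day. *Hes1*, a Notch target, was at 96.0 CPM (day 10) and 13.2 CPM (day 14), a log2 difference of -2.86 (95% interval -3.53 to -2.24). *Smad7*, the inhibitor of TGF-beta and BMP signals, was at 428 and 117 CPM, with -1.88 (95% interval -2.10 to -1.66). The orphan receptor *Nr4a1* and the EGF receptor inhibitor *Errfi1* were at 354 and 265 CPM at day 10 and at 66.2 and 61.4 CPM at day 14. In prehypertrophic-rule cells the log2 differences of *Nr4a1* and *Errfi1* were -1.55 and -1.38, and those of *Smad7* and *Hes1* only -0.25 and -0.61.

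*Klf3*, a transcriptional repressor, was at 279 and 73.6 CPM. The cytokines *Il11* and *Il17b* and the matrix gene *Matn1* were lower by log2 differences from -2.06 to -1.89. In prehypertrophic-rule cells the log2 differences were -3.13 for *Il11*, -1.67 for *Matn1* and -0.65 for *Il17b*. *Dusp5*, which shuts off ERK signaling, *Aldh1a3*, *Srxn1* and *Gm26532* completed the 12 lowest. Of these, *Dusp5*, *Srxn1* and *Gm26532* were also lower at day 14 in prehypertrophic-rule cells (-1.62, -1.52 and -1.11), and *Aldh1a3* was higher there (1.11).

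**Figure D5:**
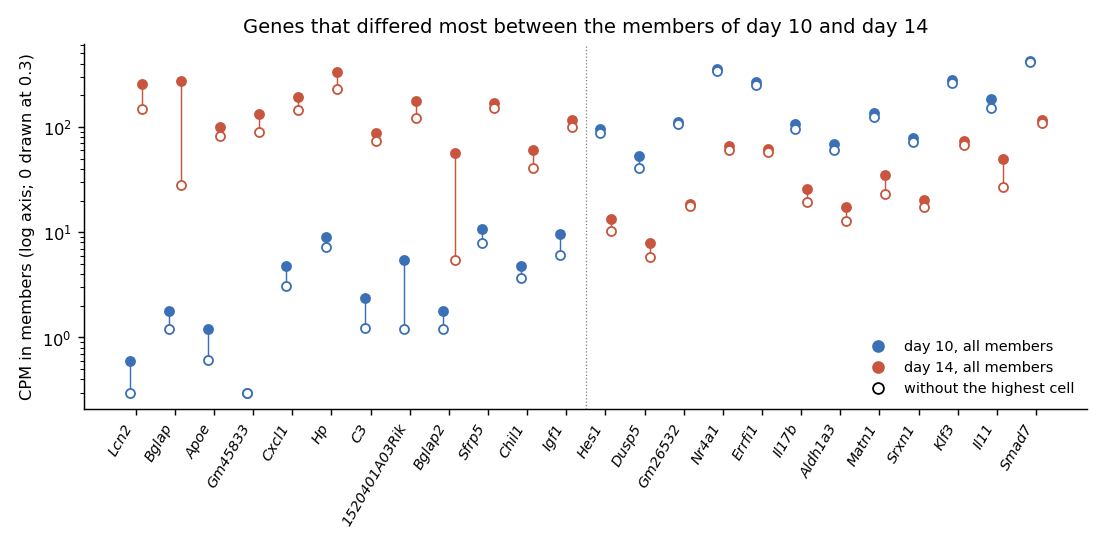
CPM on a log axis of the 12 genes highest at day 14 over day 10 (left of the dotted line) and the 12 lowest (right) in the Chrdl2/Car12 members of day 10 (blue) and day 14 (red); open circles leave out each gene's highest cell, and 0 is drawn at 0.3. *Bglap* drops from 271 to 28.2 CPM without 1 cell of day 14, whereas *Hes1*, *Nr4a1* and *Smad7* barely move.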

How the data were processed

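Droplet single-cell RNA libraries, 1 each for day 7, day 10 and day 14, were analyzed from the UMI counts per gene and cell that the authors deposited, which are whole numbers without normalization. Reads were aligned with Cell Ranger to mm10; the submitters' processing notes give version 3.0, and the sources used here differ in version and in kit chemistry. The strand setting of counting was not given in the sources used here. The limits on cells and the rule are those stated in the report, and doublets were treated only by the limit of 5000 genes. Members and gene lists were chosen with earlier results of these data known.

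UMIs were summed over the cells of a group in 1 library and given as CPM with exact Poisson 95% intervals. Ratios had exact binomial intervals, and shares Clopper-Pearson intervals. With 1 library a day no p-value was computed. A gene was called at 2-fold or more on both days, with at least 50 CPM in the higher group. A group at 0 was set to a floor of 3 counts over the group. For shares, cells were also thinned to 5000 UMIs. Named genes were the rule genes, given markers, list genes, the 12 highest and 12 lowest of each of 3 comparisons and of the days, and the 12 most variable, without mitochondrial, ribosomal, hemoglobin and rule genes. 1 gene among the lowest is not reported here. Tested on simulated data for members against prehypertrophic-rule cells, 200 of 200 changed genes and 0 unchanged genes among 2175 were called. The simulated counts held counting error only, without spread between cells, and the changes were set well beyond 2-fold. The simulation thus checks the calculation and does not give the error rate in the real cells. Positions came from GENCODE M21 (32158 of 32285 identifiers matched, 99.6%) and promoters from RefSeq. Python 3.11.15, numpy 2.4.6, scipy 1.17.1, pandas 2.3.3 and matplotlib 3.10.9 were used. Median depths per library were 5056 to 17370 UMIs per cell. Alternatives changed the limits on cells, the CPM minimum, the depth window, the centering and the averaging over cells.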

Additional observations from a re-analysis of the deposited data

Results flagged for a closer look

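*Cxcl1*, a chemokine of neutrophils, stood lower in the Chrdl2/Car12 cells than in prehypertrophic-rule cells at day 10, with a log2 ratio of -5.22, and higher at day 14, with 2.25. Against cells of neither list *Cxcl1* had the same pattern, with -4.22 at day 10 and 2.30 at day 14. Haptoglobin, *Hp*, also changed sides against prehypertrophic-rule cells, from -2.61 at day 10 to 1.27 at day 14. However, 1 cell held 32.4% of the *Hp* UMIs at day 14. Without that cell *Hp* was at 229 CPM in place of 335 CPM, less than 2-fold above prehypertrophic-rule cells. These results stand out because each was, with all cells counted, at least 2-fold on both days in opposite directions. The difference between the days was not tested, since each day had 1 library. Such genes were 2 of 2238 (0.0894%) in the first comparison and 1 of 2397 (0.0417%) in the second.

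In the day 7 library, which no comparison used, 6 of 64 *Cnmd* cells below the *Col10a1* limit had at least 4 of the 6 required genes. All 6 also had at least 4 barred genes and so belonged to both lists. 0 of 64 met the rule, and the 6 cells are given because that library entered no comparison.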

How the results depend on the processing

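Of 157 values recomputed under alternatives, 124 stayed close to the reported ones and 33 moved. These values are counts and shares, so a change of direction was not looked at. The share of members at day 10 and day 14 was 0.546% and 0.325% with at least 5 required genes, 0.743% and 0.538% with *Cnmd* of at least 20, and 0.352% (22 of 6255) and 0.156% (14 of 8981) with each cell thinned to 5000 UMIs. With at least 200 CPM, higher and lower genes numbered 20 and 5 against prehypertrophic-rule cells, 35 and 36 against cells of neither list, 22 and 22 against Col10a1 cells, and 17 and 24 between days; listed genes numbered 9 and 1, 17 and 13, 9 and 7, and 6 and 3, and higher hypoxia genes 9. With at least 20 CPM, lower genes numbered 46 against prehypertrophic-rule cells and 219 against cells of neither list; against Col10a1 cells 81 were higher and 128 lower, between days 113 and 180, and listed genes lower were 6 against prehypertrophic-rule cells and 20 between days. These counts move by the construction of the minimum. Without the upper gene limit 15 genes were lower than in prehypertrophic-rule cells in place of 23, and with at least 5 required genes 1 listed gene in place of 3; the cause was not tested. Within 10000 to 30000 UMIs, 40 of the 40 higher and 22 of the 23 lower genes were kept. Leaving out each gene's highest member cell, an alternative chosen after seeing the data, kept 33 of 40 and 23 of 23, and 51 genes were higher and 90 lower between days.

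No paired analysis was possible because no value came from a test: groups of cells were compared within each library, and each day had 1 library. Depth limits what was seen: genes under 50 CPM were not tested, and fewer cells met the rule when thinned. No value can be set against the variation between animals.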
